A study of Mus musculus with 2 samples.

Results

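The genes described here encode the collagen IV and laminin chains of basement membranes and the proteins that bind them, and are 10 of the 13620 genes listed in an RNA sequencing table of mouse embryonic stem (ES) cells. They are Col4a1, Col4a2, Lama1, Lamb1, Lamc1, Nid1, Nid2, Hspg2, Sparc and Agrn, and were taken by gene symbol, with Lamb1 found under its older symbol Lamb1-1. Polyadenylated RNA was sequenced from 1 library of genotype Fbxl10 T/T and 1 library of genotype WT, both of C57BL/6J ES cells grown with serum and leukemia inhibitory factor on growth-arrested mouse embryonic fibroblasts, which were removed by attachment to plastic before use. Fbxl10 is an older symbol of Kdm2b, whose protein binds unmethylated CpG islands and belongs to a Polycomb complex. The series asks how genes bound by Polycomb are kept from gaining DNA methylation. The labels do not say what the T allele alters, nor how many clones or cultures each library stands for.

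A basement membrane is the thin extracellular sheet on which epithelia rest. Laminin trimers, each of an α, a β and a γ chain, polymerise into a first network, and collagen IV trimers form another that is crosslinked covalently. Nidogens and the heparan sulfate proteoglycan perlecan bridge the networks, while agrin binds laminin and Sparc binds collagen. In the early mouse embryo, parietal endoderm deposits Reichert's membrane, a very thick basement membrane made of these proteins.

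Levels are normalised CPM, that is reads per 1000000 of an effective library size set by the authors, and whole reads could be recovered from them. The listed genes held 27109446 reads in Fbxl10 T/T and 21198574 reads in WT. Kdm2b was at 10.6 CPM in Fbxl10 T/T and 102.5 CPM in WT, 9.66-fold lower (95% counting interval 8.50 to 11.02). Over all genes that reached 1 CPM in at least 1 library, 14.8% were 2-fold higher in Fbxl10 T/T and 20.6% 2-fold lower. Of 10 ES cell markers, 8 were at least 2-fold lower in Fbxl10 T/T and none 2-fold higher. Their median log2 ratio was -3.30, and all 10 were detected in both libraries. Among them Tdgf1 (58.0 and 1128 CPM in Fbxl10 T/T and WT), Sox2 (30.9 and 518 CPM) and Esrrb (49.3 and 818 CPM) were lowest relative to WT. Klf4 (514 and 591 CPM) and Zfp42 (37.4 and 58.5 CPM) were within 2-fold. Dppa3 was lower, at 0.932 CPM in Fbxl10 T/T and 5.74 CPM in WT. Of 12 markers of primitive and parietal endoderm, 10 were higher and 1 lower, with a median of 3.37. Stra6 was at 121 CPM in Fbxl10 T/T and 6.36 CPM in WT, Sox17 at 515 and 35.8 CPM and Foxa2 at 267 and 22.2 CPM. Sox7 was also higher, at 193 and 32.9 CPM. Fst was within 2-fold, at 18.4 and 11.3 CPM, and Thbd was lower, at 20.0 and 47.1 CPM. The part of either shift in the levels given below was not tested.

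Promoter sequences are shown for the members whose RefSeq window (GRCm38.p6) holds an unbroken run of at least 100 bases outside the gene itself and annotated coding-gene exons, because the protein of the targeted gene binds CpG-rich DNA. CpG dinucleotides are in capitals, each run reads 5′ to 3′ on the gene's own strand, and it ends 147 (Lamb1), 51 (Nid1), 52 (Hspg2) or 45 (Agrn) bases before the start site. The runs lie at chr12:31265043-31265145 (plus strand), chr13:13437352-13437550 (plus), chr4:137468553-137468750 (plus) and chr4:156197534-156197738 (minus).
Lamb1: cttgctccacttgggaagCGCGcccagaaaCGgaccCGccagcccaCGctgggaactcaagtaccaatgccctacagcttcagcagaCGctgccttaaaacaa
Nid1: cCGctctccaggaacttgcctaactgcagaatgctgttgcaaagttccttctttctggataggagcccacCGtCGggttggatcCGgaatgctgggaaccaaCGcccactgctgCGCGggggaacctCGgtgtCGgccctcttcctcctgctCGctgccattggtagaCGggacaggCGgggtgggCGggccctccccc
Hspg2: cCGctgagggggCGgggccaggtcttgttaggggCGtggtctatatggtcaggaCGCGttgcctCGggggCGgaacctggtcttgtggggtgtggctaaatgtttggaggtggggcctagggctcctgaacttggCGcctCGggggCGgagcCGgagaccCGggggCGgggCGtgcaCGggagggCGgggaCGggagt
Agrn: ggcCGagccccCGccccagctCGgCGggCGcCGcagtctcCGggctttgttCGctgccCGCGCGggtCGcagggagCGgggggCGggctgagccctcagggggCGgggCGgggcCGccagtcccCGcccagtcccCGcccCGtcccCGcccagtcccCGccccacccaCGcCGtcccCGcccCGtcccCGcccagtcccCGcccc

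A window of 300 bases, 250 before and 50 after a start site, was found for 7 of the 10 genes. The first Agrn window held 42 CpGs, Col4a1 37, Col4a2 33, Hspg2 27, Nid1 20 and Lamb1 18, whereas Sparc held 4 and a second Agrn start site 11. The median of all 32851 windows was 7. The observed over expected CpG ratio was 0.902 for Col4a1, 0.867 for the first Agrn window and 0.174 for Sparc, against a median of 0.384. On both strands, GGGCGG occurred in all of these windows but that of Sparc, with 12 matches in the first Agrn window and 5 in Hspg2, and 35.7% of all windows held it. CCAAT was found in the windows of Col4a1, Col4a2, Lamb1 and Nid1, against 37.4% of all windows. GATAA (25.4% of all windows) and ACAAT (31.0%) occurred in none of them. Such matches describe letters and do not locate binding sites.

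All of the main structural chains were many times more abundant in the Fbxl10 T/T library. On the log2(CPM + 0.5) scale used for counting, 8 members passed the line for 2-fold higher and none that for 2-fold lower, while Hspg2 and Agrn lay in between. Over all 13512 genes that reached 1 CPM in at least 1 library, 14.8% were 2-fold higher, 20.6% 2-fold lower and 64.7% in between. At 4-fold, 7 members were higher, against 3.84% of all genes, and at 8-fold 4 were, against 0.881%. The 8-fold count depends on the authors' scaling. When the libraries were scaled to a common upper quartile, the log2 ratios of Col4a1, Lamb1 and Col4a2 were 2.91, 2.91 and 2.74, below 8-fold. The median log2 ratio was 2.83 for the members and 0.02 for all genes. With 1 library per genotype no difference between genotypes could be tested, so "higher" and "lower" describe these libraries, and intervals are exact binomial 95% intervals that cover counting error only. In bulk RNA, more cells that make a transcript and more of it per cell cannot be told apart.

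**Figure D1:**
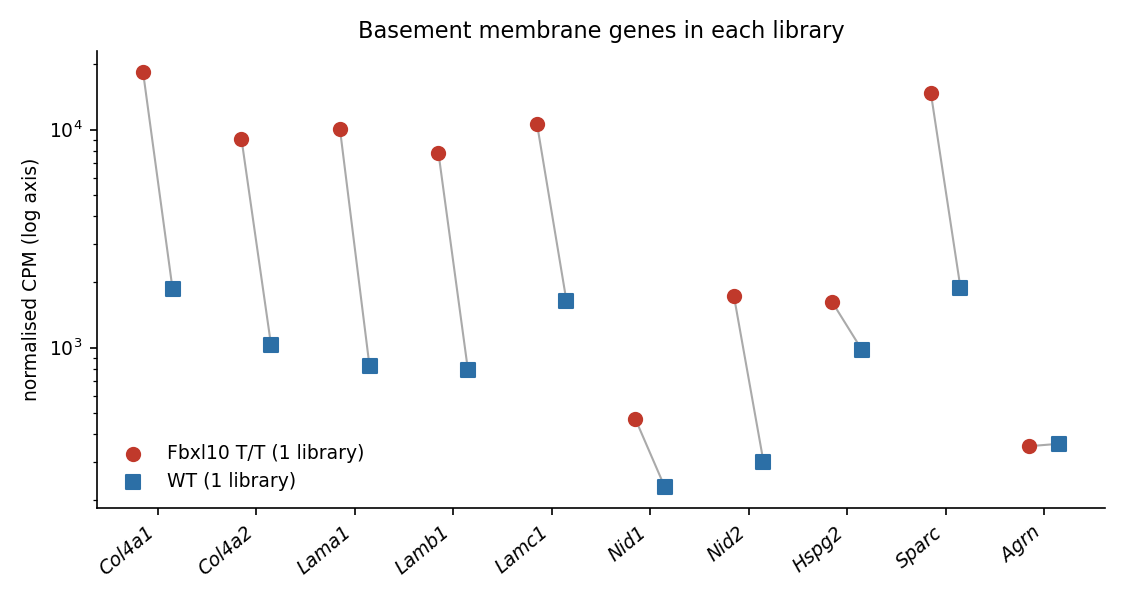
Normalised CPM (log axis) of each of the 10 genes in Fbxl10 T/T (red circles) and WT (blue squares), 1 library each, joined by a grey line. Col4a1 stood at 18445 and 1862 CPM, and the Agrn points at 353 and 362 CPM nearly coincide.

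Col4a1 and Col4a2 encode the α1 and α2 chains of the most widespread collagen IV trimer. Col4a1 was at 18445 CPM in Fbxl10 T/T (455355 reads) and 1862 CPM in WT (44470 reads), a 9.91-fold ratio (9.81 to 10.003). Col4a2 was at 9058 CPM in Fbxl10 T/T and 1031 CPM in WT, or 8.79-fold (8.67 to 8.91). Both genes were thus higher by nearly the same factor, with intervals that do not overlap. They lie on chromosome 8 in mm9, Col4a1 from 11198433 to 11312748 and Col4a2 from 11313024 to 11449215, so that 275 bases separate the intervals of the deposited table. In RefSeq on GRCm38.p6 the genes run in opposite directions and their start sites overlap by 22 bases, at chr8:11312805-11312826.

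The laminin chains of the set assemble into the α1β1γ1 trimer, the laminin of the earliest embryonic basement membranes. Lama1, for the α1 chain, had the largest ratio of the 10 genes, at 10036 CPM in Fbxl10 T/T and 823 CPM in WT (12.2-fold, 12.0 to 12.4). Only 41 of the 13512 genes had a larger log2 ratio. Lamb1, for the β1 chain, was at 7808 CPM in Fbxl10 T/T and 787 CPM in WT (9.92-fold, 9.78 to 10.1). Its interval overlapped that of Col4a1, so their order cannot be given. Lamc1, for the γ1 chain, was at 10646 CPM in Fbxl10 T/T and 1634 CPM in WT (6.52-fold, 6.45 to 6.59). Among the laminin chains of the set, γ1 had the smallest ratio and the highest WT level. In mm9, Lama1 spans 68046605 to 68171985 on chromosome 17, Lamb1 31950159 to 32014504 on chromosome 12 and Lamc1 155066053 to 155179916 on chromosome 1.

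The linker genes divided. Nid2, which encodes nidogen-2, was at 1723 CPM in Fbxl10 T/T and 300.1 CPM in WT (5.74-fold, 5.597 to 5.885). Nid1, for nidogen-1, was at 470.0 CPM in Fbxl10 T/T and 228.5 CPM in WT (2.06-fold, 1.99 to 2.12), just past the 2-fold line. It fell short of that line when the libraries were scaled by their total reads in listed genes (log2 ratio 0.73). Hspg2, for perlecan, was at 1612 CPM in Fbxl10 T/T and 976 CPM in WT (1.65-fold, 1.62 to 1.68). Agrn, for agrin, was at 353 CPM in Fbxl10 T/T and 362 CPM in WT, and its ratio of 0.975 had an interval (0.947 to 1.005) that includes 1. Perlecan and agrin thus lay between the 2-fold lines, and only for Agrn did the interval include 1. That holds for the authors' scaling, and with total reads the log2 ratio of Agrn was -0.34. The intervals in mm9 are 20570479 to 20631009 on chromosome 14 for Nid2, 13529958 to 13604521 on chromosome 13 for Nid1, 137024718 to 137126543 on chromosome 4 for Hspg2 and 155539403 to 155571529 on chromosome 4 for Agrn.

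Sparc, a secreted collagen-binding glycoprotein gene on chromosome 11 from 55208002 to 55233400 in mm9, was at 14636 CPM in Fbxl10 T/T and 1883 CPM in WT. The ratio was 7.77-fold (7.70 to 7.85), between those of Col4a2 and Lamc1. In order of their ratios the genes ran Lama1, Lamb1 and Col4a1, Col4a2, Sparc, Lamc1, Nid2, Nid1, Hspg2 and Agrn, and every step other than that between Lamb1 and Col4a1 exceeded the counting intervals. Of the 10 genes, 9 were called higher by an exact binomial test of the reads with Benjamini-Hochberg adjustment, which compares these libraries and not the genotypes, and which called 42.4% of all genes higher and 40.9% lower.

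Some of these values may include reads of overlapping genes, since the strand setting of the counting is not given in the sources used here. In GENCODE M21, exons of Nid2 overlap those of Rtraf on the opposite strand by up to 437 bases, and Rtraf was at 104 CPM in Fbxl10 T/T and 92.2 CPM in WT. Exons of Nid1 overlap the antisense gene Gm48682 by up to 143 bases, those of Col4a2 overlap Gm15419 by up to 43 bases, and the Nid1 row carries a second identifier.

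Together the 10 genes took 6.81% of the reads in listed genes in Fbxl10 T/T (1846267 reads, interval 6.80 to 6.82%). In WT they took 1.11% (236115 reads, 1.11 to 1.12%), a ratio of 6.11. The collagen IV pair held 2.50% of Fbxl10 T/T reads and 0.326% of WT reads. The laminin trio held 2.59% and 0.365%, and Sparc alone 1.33% and 0.212%, in Fbxl10 T/T and WT. Summed over the members, the level was 74788 CPM in Fbxl10 T/T and 9887 CPM in WT, 7.56-fold. The difference made up 17.3% of the summed gain in CPM over the 6883 genes with a higher value in Fbxl10 T/T. The library scaling enters this comparison. Relative to the authors' scaling, scaling by total reads in listed genes moved the members' log2 ratios by about -0.31. With the members' reads left out of those totals, the shift from the authors' scaling was smaller, about -0.22.

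**Figure D2:**
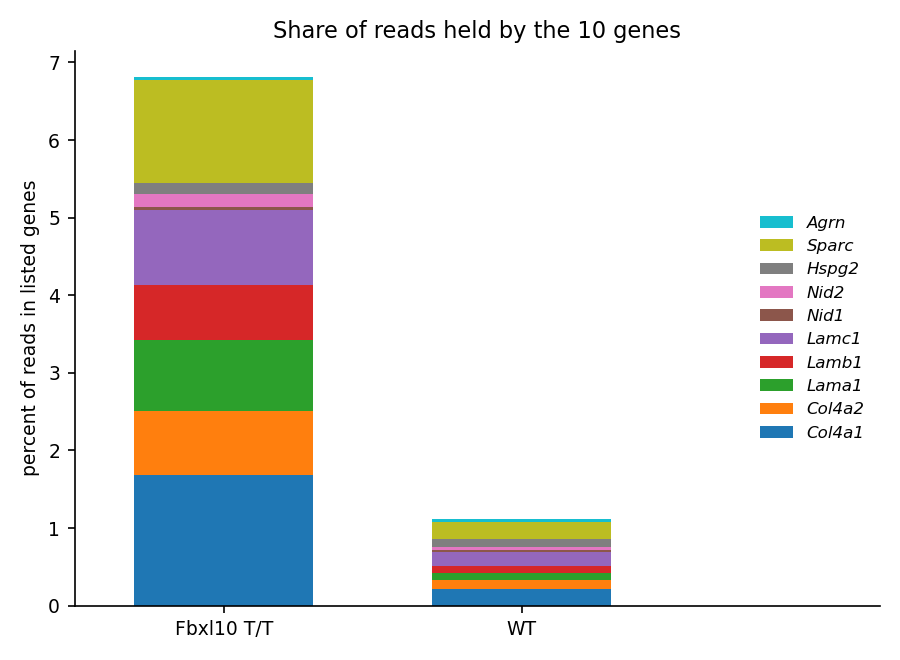
Percent of the reads in listed genes that fell on each of the 10 genes, stacked, in Fbxl10 T/T (left) and WT (right). The stacks reach 6.81% and 1.11%, and Col4a1 and Sparc are the thickest layers in both.

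Of the 10 genes with most reads, 6 were members in Fbxl10 T/T (Col4a1, Sparc, Lamc1, Lama1, Col4a2 and Lamb1) and none in WT, where Sparc ranked 18th and Col4a1 19th. Long transcripts yield more reads, so levels between genes were compared per kilobase of coding length over 12670 genes. On that scale Sparc ranked 1st in Fbxl10 T/T, at 14694 CPM per kb, and 29th in WT, at 1891 CPM per kb. Its coding sequence (996 bases) is short beside its longest transcript (2300 bases), and per kilobase of transcript it ranked 1st and 47th. Col4a1 ranked 11th in Fbxl10 T/T and 352nd in WT per kilobase of coding length, Lamc1 35th and 408th, Col4a2 55th and 819th, Lamb1 76th and 1222nd, and Lama1 113th and 1949th. Agrn was the member lowest in this order, at rank 3123 in Fbxl10 T/T and 2786 in WT.

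Chain stoichiometry was compared as ratios of CPM per kilobase of coding length. These are ratios of RNA and do not measure the protein chains in a trimer. The trimer of collagen IV holds more α1 than α2, in the order α1α1α2. The Col4a1 to Col4a2 ratio was 2.08 in Fbxl10 T/T (2.07 to 2.09) and 1.85 in WT (1.82 to 1.88). The quotient of the libraries was 1.13 (1.11 to 1.15, Woolf interval, counting error only), so the pair stood in nearly the same proportion in both libraries.

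**Figure D3:**
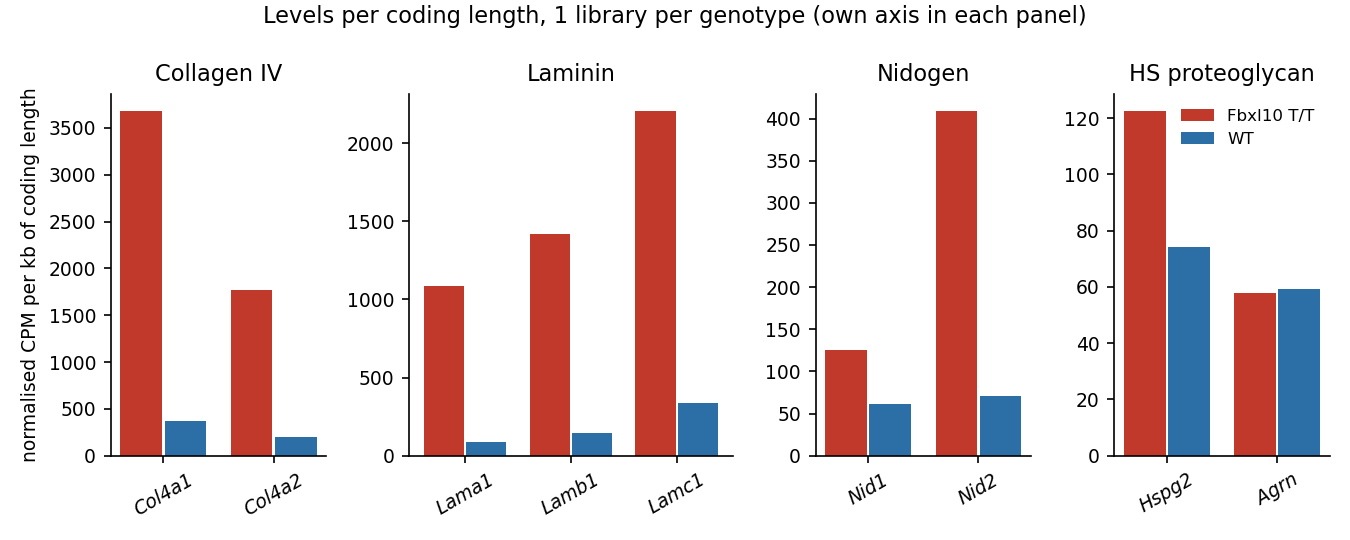
Normalised CPM per kb of coding length for collagen IV, laminin, nidogen and heparan sulfate (HS) proteoglycan genes in Fbxl10 T/T (red) and WT (blue), 1 library each, with an axis from 0 in each panel. Lamc1 is the tallest laminin bar in both libraries, at 2208 and 339 CPM per kb.

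The laminin chains were less even. Lama1 was at 1085 CPM per kb in Fbxl10 T/T, Lamb1 at 1419 and Lamc1 at 2208, against 89.0, 143.0 and 339 CPM per kb in WT. The Lama1 to Lamc1 ratio was 0.491 in Fbxl10 T/T and 0.263 in WT, a quotient of 1.87 (1.84 to 1.90). The Lamb1 to Lamc1 ratio was 0.643 and 0.422 in Fbxl10 T/T and WT, a quotient of 1.52 (1.495 to 1.551), and the Lama1 to Lamb1 ratio 0.765 and 0.622, a quotient of 1.23 (1.20 to 1.25). RNA for the α1 chain was the least abundant of the trimer in both libraries, and the 3 levels lay closer together in Fbxl10 T/T. The ratios within a library depend on the length used, and with the longest transcripts Lama1 to Lamc1 was 0.754 in Fbxl10 T/T and 0.403 in WT. The quotients of the libraries do not depend on it.

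The nidogens were less even in Fbxl10 T/T than in WT. The Nid1 to Nid2 ratio was 0.307 in Fbxl10 T/T (0.301 to 0.314) and 0.858 in WT (0.828 to 0.889). The quotient was 0.358 (0.344 to 0.373). Relative to its laminin partner Lamc1, to whose protein nidogens bind, Nid1 was at 0.0570 in Fbxl10 T/T and 0.181 in WT. That does not hold for both nidogens. Nid2 was at 409 CPM per kb in Fbxl10 T/T and 71.3 in WT, beside 2208 and 339 for Lamc1. The 5.74-fold ratio of Nid2 was closer to the 6.52-fold of Lamc1 than the 2.06-fold of Nid1 was.

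Among the other collagen IV and laminin chains no gene passed 2-fold higher, against 14.8% of all genes. Of 11 such genes 7 were listed and 6 reached 1 CPM, of which 2 were 2-fold lower and 4 lay in between (median log2 ratio -0.68). Over all genes 20.6% were 2-fold lower, and 6 genes are too few to set these counts apart from the shares. Lamb3 was at 0.527 CPM in Fbxl10 T/T and 11.01 CPM in WT, and Lama3 at 0.851 and 5.57 CPM. Both encode laminin chains known from the basement membrane of skin, and both were lower. Lama5, for the α5 chain, was at 296 CPM in Fbxl10 T/T and 437 CPM in WT, and Lamb2 at 115 and 71.1 CPM. Lama4 (4.01 and 6.45 CPM), Col4a5 (5.23 and 9.003 CPM) and Lama2 (0.851 and 0.921 CPM) were low in both libraries. Col4a3, Col4a4, Col4a6 and Lamc3 were not among the listed genes.

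Per kilobase of coding length, Lama1 made up 97.5% of the laminin α chains in Fbxl10 T/T and 68.5% in WT, where Lama5 held 30.1%. Lamb1 made up 98.5% of the β chains in Fbxl10 T/T and 89.8% in WT. Of the 6 collagen IV chain genes 3 were listed. Among these, Col4a1 and Col4a2 made up almost all in both libraries, with Col4a5 at 0.0189% in Fbxl10 T/T and 0.309% in WT. Perlecan, agrin and collagen XVIII are the heparan sulfate proteoglycans of basement membranes, and here Hspg2 held 64.1% in Fbxl10 T/T and 24.9% in WT. Col18a1 had 5.57% in Fbxl10 T/T, against 55.3% in WT.

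**Figure D4:**
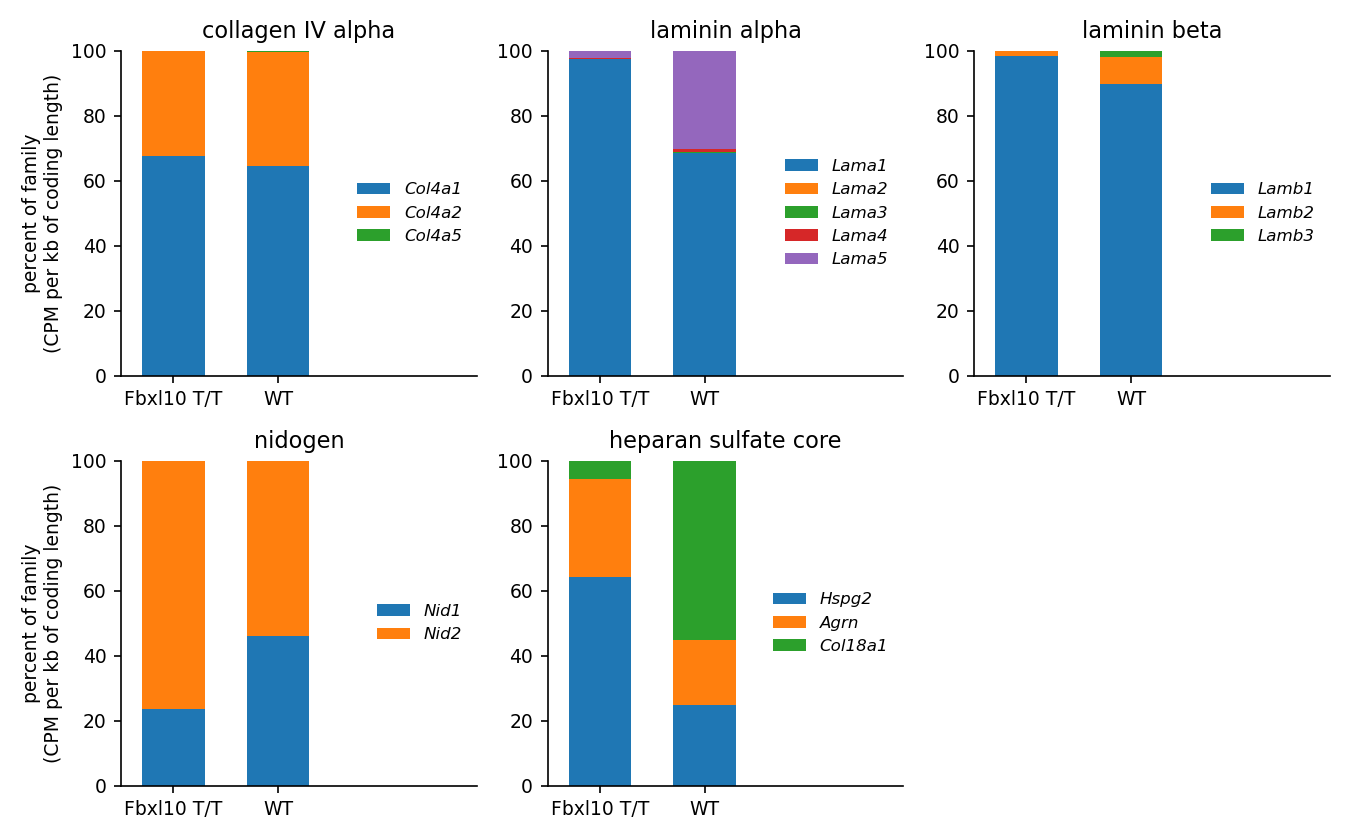
Share of each gene in its chain family, in percent of the summed CPM per kb of coding length, in Fbxl10 T/T (left bar) and WT (right bar), 1 library each. The laminin α bar is 97.5% Lama1 in Fbxl10 T/T and 68.5% in WT, and Col18a1 takes 5.57% and 55.3% of the heparan sulfate cores. The collagen IV bar covers the 3 listed of 6 chain genes.

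Further basement membrane proteins were more often lower than higher. Of 18 such genes 14 were measured, with 3 higher, 8 lower and 3 in between (median -1.18). Over all genes 14.8% were higher and 20.6% lower. Col18a1, for the collagen whose end fragment is endostatin, was 15.5-fold lower, at 56.6 CPM in Fbxl10 T/T and 878 CPM in WT. Fbln1, for fibulin-1, was at 6.72 CPM in Fbxl10 T/T and 49.1 CPM in WT, and Vwa1, which encodes a perlecan-binding protein, at 1.499 and 5.57 CPM. Tinagl1, for a laminin-binding matricellular protein, was 8.01-fold higher, at 590 CPM in Fbxl10 T/T and 73.7 CPM in WT. Egflam, for the dystroglycan ligand pikachurin, was at 10.9 and 2.93 CPM, and Col15a1 at 3.44 and 1.30 CPM.

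Genes that modify, export or crosslink collagen IV were mostly higher along with its chains. Of 17 measured among 18 (Mia3 was not listed), 14 were higher, 1 lower and 2 in between (median 2.13). The shares over all genes were 14.8% higher and 20.6% lower. The prolyl 4-hydroxylase gene P4ha1 was at 812 CPM in Fbxl10 T/T and 73.9 CPM in WT, the prolyl 3-hydroxylase gene P3h2 at 70.0 and 6.24 CPM and the lysyl hydroxylase gene Plod2 at 476 and 49.5 CPM. The peroxidase gene Pxdn, whose product makes the sulfilimine crosslinks of collagen IV, was at 86.5 CPM in Fbxl10 T/T and 58.8 CPM in WT. P3h3 was at 23.7 and 16.7 CPM, and the galactosyltransferase gene Colgalt2 at 0.162 and 1.17 CPM. Serpinh1, for the collagen chaperone HSP47, and Loxl2, for a collagen IV crosslinking oxidase, were picked after their values were seen and were 6.45- and 6.49-fold higher.

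The receptor genes were mostly lower. Of 11 receptor genes for laminin, collagen IV or agrin, 9 were measured. None was 2-fold higher, 6 were 2-fold lower and 3 lay in between (median -1.26), against 14.8% higher and 20.6% lower over all genes. Bcam, for a receptor of the laminin α5 chain, was at 58.0 CPM in Fbxl10 T/T and 484 CPM in WT (8.35-fold lower). The integrin genes Itgb4 (4.13 and 34.3 CPM) and Itga6 (17.9 and 124 CPM), whose products pair as a laminin receptor, were 8.30- and 6.94-fold lower. Ddr1, for a collagen receptor kinase, was at 17.6 CPM in Fbxl10 T/T and 89.7 CPM in WT, Itga7 at 4.33 and 11.1 CPM, and the dystroglycan gene Dag1 at 141 and 327 CPM. Itgb1, for the shared β1 subunit, was at 312 CPM in Fbxl10 T/T and 168 CPM in WT, 1.86-fold higher. Itga3 was at 103 and 159 CPM, and the agrin receptor gene Lrp4 at 7.66 and 8.12 CPM. Itga1 and Itga2 were not among the listed genes.

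**Figure D5:**
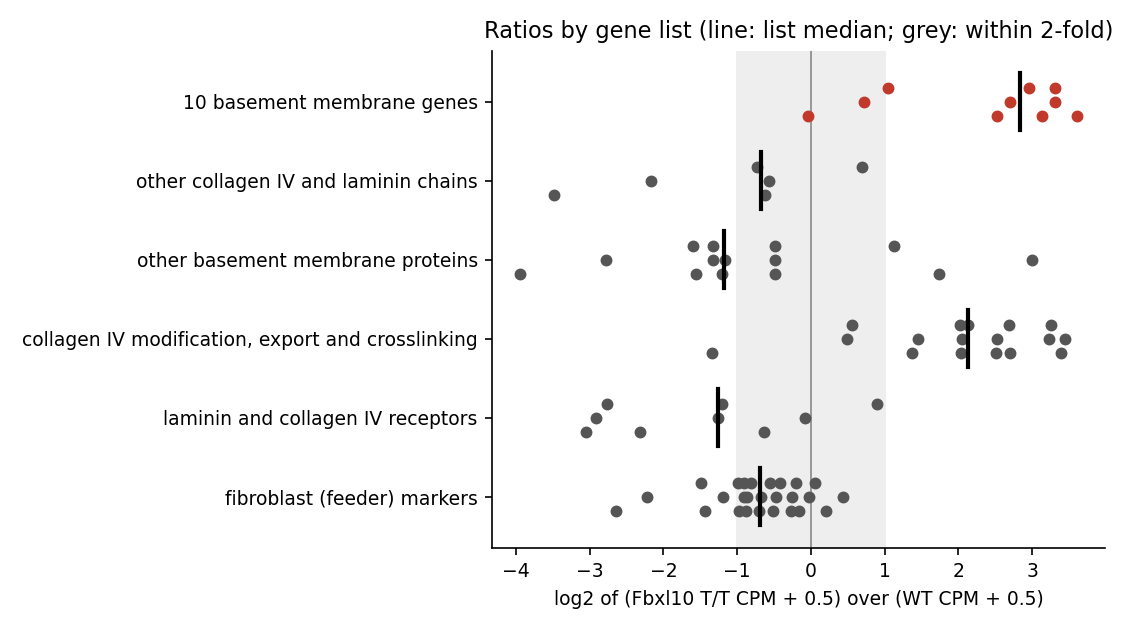
Log2 ratio, Fbxl10 T/T over WT, of every gene at 1 CPM or more in 6 lists. Each dot is a gene, the black line the list's median and the grey band the range within 2-fold. The medians run from 2.83 for the 10 basement membrane genes to -1.26 for the receptors.

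Fibroblasts also make collagen IV, laminin, nidogen and Sparc, so markers of the feeder cells were set beside the members. Of 30 fibroblast markers 26 were measured, none was 2-fold higher, 5 were lower and 21 lay in between (median -0.69). Over all genes 14.8% were higher and 20.6% lower, so the count of lower markers was near the share of all genes. The summed level of the fibroblast markers was 1389 CPM in Fbxl10 T/T and 2493 CPM in WT, against 74788 and 9887 CPM for the members. Col1a1 was at 117 CPM in Fbxl10 T/T and 102 CPM in WT, Postn at 14.9 and 10.8 CPM, Acta2 at 222 and 214 CPM, Twist1 at 4.17 and 28.6 CPM, Fstl1 at 79.5 and 372 CPM and Tnc at 283 and 798 CPM. None of the defining markers (Col1a1, Col1a2, Col3a1, Dcn, Thy1, Twist1 and Prrx1) was at 0 in either library, and their part in the members' levels was not tested.

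The members lie on 8 chromosomes, and their neighbours did not share their ratios throughout. Of 17 distinct genes listed next to a member in mm9, 4 were 2-fold higher and 2 lower, beside the 14.8% and 20.6% over all genes. Beside the collagen IV pair, Rab20, 4.18 kb from Col4a2, was at 13.0 CPM in Fbxl10 T/T and 3.98 CPM in WT, and Irs2, 190.0 kb from Col4a1, was at 42.7 and 43.1 CPM. Atox1, next to Sparc, was at 210.4 CPM in Fbxl10 T/T and 69.3 CPM in WT. These neighbours were picked after their values were seen. Over the 2 libraries, the genes at 100 CPM or more in Fbxl10 T/T with a log2 ratio closest to the members' median were Tgoln1 (2.83), Hkdc1 (2.81), Stard8 (2.81), Plscr1 (2.86) and Anxa3 (2.86). The likeness is that of a single ratio.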

How the data were processed

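Polyadenylated RNA of 1 Fbxl10 T/T and 1 WT library of mouse ES cells was measured. Per the submitters' processing notes, reads were processed on build mm9 with tools that include TopHat 1.4.1, HTSeq 0.5.3p9 and edgeR. What each did, the gene annotation and whether strand was used is not stated there. The deposited signal is a gene's read count over an effective library size, times 1000000 (normalised CPM). The authors' log2 ratio in the deposited table runs WT over Fbxl10 T/T and was not used for any printed value.

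All values (100%) were whole multiples, within 0.01 reads, of 0.0405 CPM per read in Fbxl10 T/T and 0.0419 CPM in WT, so whole reads were recovered. A floor of 3 reads corresponds to 0.122 CPM in Fbxl10 T/T and 0.126 CPM in WT. The 11086 repeated rows of 24706 were used once. Log2 ratios are Fbxl10 T/T over WT with a pseudocount of 0.5 CPM, and folds use CPM without one. Genes at 1 CPM or more in 1 library were counted as 2-fold higher, lower or in between. A two-sided exact binomial test of the reads, an added comparison of the libraries, gave 5780 higher and 5564 lower genes (Benjamini-Hochberg threshold 0.05). Intervals are Clopper-Pearson at 95%, and PCR copies are not independent molecules. Coding and transcript lengths are the longest in GENCODE M21, promoters are from RefSeq (GRCm38.p6), and motif matches were counted on both strands. The steps were tested on simulated reads. Software was scipy 1.17.1, pandas 2.3.3, numpy 2.4.6 and matplotlib 3.10.9 on Python 3.11.15.

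The members and gene lists were chosen with earlier results of these data known. Named genes are all members, Kdm2b, all measured chains and receptors, up to 3 genes at either end of each other list, and the 5 genes at 100 CPM or more in Fbxl10 T/T closest to the members' median ratio. Also named are the defining fibroblast markers, genes whose exons overlap a member's, and a few genes said in the text to have been picked after their values were seen. A gene that this rule names is not reported here and was left out of the counts over lists and neighbours. Alternatives were other pseudocounts, scalings, minimums, fold thresholds, denominators and lengths, and the added test.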

Additional observations from a re-analysis of the deposited data

How the results depend on the processing

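No paired analysis was possible because each genotype had a single library, which also means that none could be left out. Of 60 member log2 ratios recomputed under other pseudocounts and scalings, 57 kept their direction and side of the 2-fold line. The other 3 were those of Nid1, at 0.73 with total reads in listed genes, 0.64 with a common upper quartile and 0.82 with totals without the members. The median of all genes turned to -0.28, -0.37 and -0.20 with these scalings and to -0.0023 with a common median ratio, by construction. With the upper quartile, the medians of the other collagen IV and laminin chains and of the fibroblast markers passed 2-fold lower, at -1.03 and -1.08, and 1156 genes were 2-fold higher. Higher genes numbered 3582 at 1.5-fold and 519 at 4-fold, and the lower ones 1229 at 4-fold. A minimum of 5 CPM, which counts fewer genes, left 1737 lower.

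The members' share became 7.15% in Fbxl10 T/T and 1.17% in WT without the 10 most abundant other genes, and 7.48% and 0.989% of the effective library sizes. With the longest transcripts, the chain ratios in Fbxl10 T/T and WT were 1.99 and 1.76 for Col4a1 to Col4a2, 0.754 and 0.403 for Lama1 to Lamc1, 0.966 and 0.635 for Lamb1 to Lamc1, 0.780 and 0.635 for Lama1 to Lamb1, 0.218 and 0.609 for Nid1 to Nid2 and 0.0552 and 0.175 for Nid1 to Lamc1. With no length correction they were, in the same order, 2.04 and 1.81, 0.943 and 0.504, 0.733 and 0.482, 1.29 and 1.05, 0.273 and 0.761, and 0.0441 and 0.140. The order of Lama1 and Lamb1 turns without the correction, since Lama1 is longer. Depth limits only genes of a few reads, and none of the members is among them.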
